A study of Mus musculus with 16 samples.

Results

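The mitochondrial solute carriers described here were the protein-coding genes with a symbol starting with Slc25a that had at least 10 counts in at least 4 of the 16 libraries. They were 41 of the 47 protein-coding Slc25a genes in the counts, which cover 52636 genes in all, and 40 of them had enough counts to be tested (Slc25a2 did not). The 6 left out, Slc25a21, Slc25a31, Slc25a41, Slc25a45, Slc25a48 and Slc25a54, reached 10 counts in at most 3 libraries. RNA was sequenced from pancreatic islets of male mice aged 12 weeks, named as strain C57BL/6JRj in the labels and C57BL/6NRj in the methods, with no genetic change named for any group. Islets were kept for 10 days with no addition (control), with IL-1β at 50 pg/mL, with sodium butyrate at 0.2 mM, or with IL-1β plus butyrate, in 4 independent experiments. All groups shared the same culture medium with human serum. The 500 islets behind a library were a pool of several mice, and replicates are therefore experiments rather than single animals. IL-1β is a cytokine that drives inflammation, and butyrate is a product of fiber fermentation by bacteria of the gut.

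Slc25 carriers are small proteins that, with few exceptions, sit in the inner mitochondrial membrane and exchange nucleotides, phosphate, organic acids, amino acids and cofactors between cytosol and matrix. They are encoded in the nucleus, made in the cytosol and inserted into the membrane through the TIM22 import route. In beta cells, the insulin-secreting cells of the islet, glucose oxidation in mitochondria raises cytosolic ATP, which closes potassium channels and starts insulin release, and the ADP/ATP, phosphate, aspartate/glutamate, citrate and dicarboxylate carriers connect that oxidation to the cytosol.

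Of the 40 tested carriers, 6 (15%, beside 13.5% of all genes) were changed by butyrate in the same direction in the presence and in the absence of IL-1β. Slc25a13 (citrin, an aspartate/glutamate carrier), Slc25a23 (an ATP-Mg/phosphate carrier) and Slc25a37 (mitoferrin 1, an iron carrier) were raised by butyrate, and Slc25a38 (a glycine carrier of heme synthesis), Slc25a53 (substrate not settled) and Slc25a10 (the dicarboxylate carrier) were lowered. The fold changes were small, with log2 values from -0.56 to 0.56 over these genes and both comparisons. IL-1β alone changed 5 (12.5%, beside 17.8% of all genes), and raised Slc25a24, another ATP-Mg/phosphate carrier, the most. Over the 4 comparisons between conditions the share of carriers that changed was 12.5% to 25%, beside 17.8% to 30.6% of all genes. With the experiment number as a block in the fit, 17.5% of carriers changed with IL-1β, beside 24.4% of all genes. In that fit butyrate changed 32.5% when added to IL-1β and 40% alone, beside 26.8% and 26.2% of all genes. For IL-1β plus butyrate against control the shares were 47.5% and 37.1%. No carrier passed the test for a different butyrate effect with and without IL-1β.

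Promoter sequences of the genes that butyrate changed in both comparisons are shown for reference, as the 250 bases before the RefSeq start on GRCm38.p6, read 5′ to 3′ on the gene's strand. RefSeq promoters were found for 31 of the 41 carriers, and for 5 of these 6 genes (Slc25a37 is named only). Capitals mark matches, on either strand, to 5 motifs: CCAAT (the CCAAT box), GGGCGG (the GC box), CCGGAAG (the core bound by ETS factors), GCATGCG (the core bound by NRF1) and CACGTG (the E-box). These motifs do not overlap each other in the windows shown.
Slc25a13 (chr6:6217174-6217423, minus strand): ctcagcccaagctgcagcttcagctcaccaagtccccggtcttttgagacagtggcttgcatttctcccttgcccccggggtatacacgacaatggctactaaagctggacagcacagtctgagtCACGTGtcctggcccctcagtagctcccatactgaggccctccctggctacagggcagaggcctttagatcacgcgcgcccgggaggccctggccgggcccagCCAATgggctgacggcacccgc
Slc25a23 (chr17:57059864-57060113, minus strand): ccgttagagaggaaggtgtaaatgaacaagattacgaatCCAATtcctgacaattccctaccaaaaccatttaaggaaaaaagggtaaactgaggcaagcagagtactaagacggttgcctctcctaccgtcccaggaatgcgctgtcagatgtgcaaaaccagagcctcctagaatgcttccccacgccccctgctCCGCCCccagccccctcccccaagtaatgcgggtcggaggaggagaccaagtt
Slc25a38 (chr9:120110132-120110381, plus strand): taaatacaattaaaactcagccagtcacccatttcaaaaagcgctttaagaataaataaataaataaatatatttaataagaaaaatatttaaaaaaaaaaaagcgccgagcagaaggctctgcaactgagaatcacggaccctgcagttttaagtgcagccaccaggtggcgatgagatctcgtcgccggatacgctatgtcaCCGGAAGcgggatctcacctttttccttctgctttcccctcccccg
Slc25a53 (chrX:137038303-137038552, minus strand): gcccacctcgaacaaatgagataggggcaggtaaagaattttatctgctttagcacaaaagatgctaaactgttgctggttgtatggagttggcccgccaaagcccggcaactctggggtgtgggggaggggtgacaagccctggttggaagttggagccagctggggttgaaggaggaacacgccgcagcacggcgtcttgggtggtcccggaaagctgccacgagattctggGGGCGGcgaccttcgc
Slc25a10 (chr11:120491587-120491836, plus strand): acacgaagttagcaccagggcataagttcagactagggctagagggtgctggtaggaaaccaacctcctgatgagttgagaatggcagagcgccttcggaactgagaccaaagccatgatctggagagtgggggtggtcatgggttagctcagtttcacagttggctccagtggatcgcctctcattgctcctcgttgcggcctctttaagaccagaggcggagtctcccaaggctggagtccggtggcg

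The Slc25a13 window held an E-box 125 bases and a CCAAT box 22 bases before the start, and the Slc25a23 window a CCAAT box at 211 and a GC box at 53 bases. The Slc25a38 window held an ETS core at 46 bases, the Slc25a53 window a GC box at 16 bases, and the Slc25a10 window none of the 5 motifs. Among 32851 RefSeq promoters of the same length, 33.8% held CCAAT, 32.7% GGGCGG, 6.91% CCGGAAG, 6.02% CACGTG and 3.02% GCATGCG. Of the 31 carriers with a promoter, 21 held a GC box, 15 a CCAAT box, 5 an ETS core, 5 an E-box and 0 an NRF1 core. None of the 5 motifs was held by all 5 windows shown.

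Total counts per library were 18635943 to 25955943, and the 41 carriers took 0.215% to 0.233% of them. Gene positions are those of GENCODE M21 on GRCm38. Values are given as counts scaled to the TMM-adjusted library size (CPM) and, to compare levels between genes, as CPM per kilobase of exon (RPKM), with mean ± SD over the 4 libraries of a condition. The levels spanned from 87.0 RPKM for Slc25a4 to 0.1285 RPKM for Slc25a34 as means over all libraries. Of the carriers, 14 were at or above 10 RPKM, 19 were from 1 to under 10 and 8 were under 1. The 5 most abundant, the ADP/ATP carriers Slc25a4 (87.0 RPKM) and Slc25a5 (84.4), the phosphate carrier Slc25a3 (73.1), the glutathione carrier Slc25a39 (65.6) and the citrate carrier Slc25a1 (51.0), held 58.5% of the summed RPKM of the 41 genes. Slc25a4 and Slc25a5 were neighbours in this order with overlapping values over the libraries, with a per-length ratio of 0.970 ± 0.0158 in control islets and 1.07 ± 0.0568 with IL-1β. The summed level was 618 ± 7.96 RPKM in control islets, 626 ± 32.2 with IL-1β, 615 ± 9.49 with IL-1β plus butyrate and 612 ± 8.89 with butyrate, ranges that overlap.

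**Figure D1:**
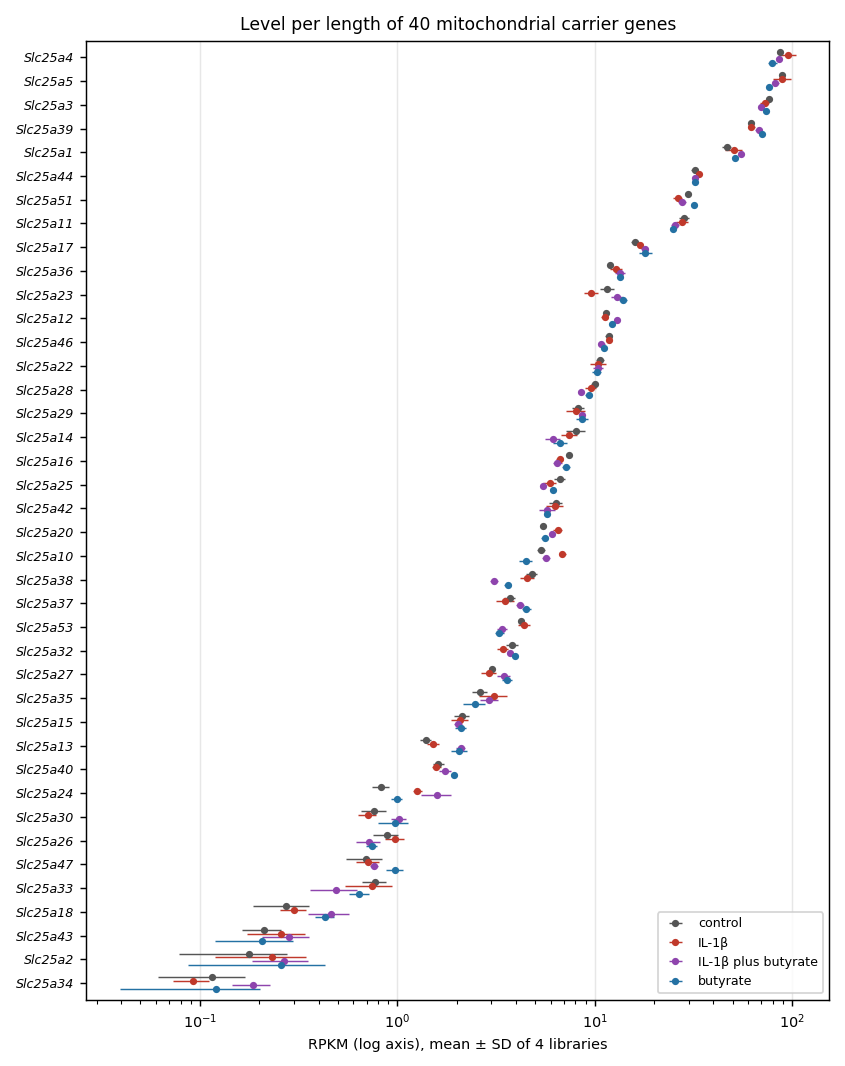
Mean RPKM (CPM per kilobase of exon, log axis) ± SD over 4 libraries for 40 of the 41 carriers, ordered by their mean over all 16 libraries and coloured by condition. The level falls from 87.0 RPKM for Slc25a4 to 0.1285 RPKM for Slc25a34, and for most genes the 4 conditions lie close together compared with the distance between genes.

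Changes were tested with edgeR, and a gene was taken as changed at a Benjamini-Hochberg adjusted p (edgeR FDR) under 0.01 over the 18587 genes tested. In bulk RNA of whole islets, fewer cells of a type and less RNA per cell cannot be told apart. IL-1β changed 5 of the 40 tested carriers, 12.5% beside 17.8% of all genes tested. Of these, 3 were raised (Slc25a24, Slc25a10 and Slc25a20; 11.2% of all genes) and 2 were lowered (Slc25a23 and Slc25a51; 6.59% of all genes). The median log2 fold change of the 40 carriers was -0.016 beside -0.025 over all genes. With the experiment number as a block in the fit, 7 (17.5%) passed, beside 24.4% of all genes. The count fell to 3 without control replicate 3 (14.5% of all genes passed in that fit), when Slc25a23 and Slc25a51 did not pass. The division into raised and lowered depended on the scaling, with 3 raised and 4 lowered under upper-quartile scaling and 7 raised and 0 lowered with library size alone. Of all 18587 genes tested, 1914 were raised and 1800 lowered under upper-quartile scaling, and 2798 raised and 708 lowered with library size alone.

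Butyrate added to IL-1β changed 8 of the 40 carriers against IL-1β alone, 20% beside 19.5% of all genes tested. Slc25a30, Slc25a13, Slc25a23, Slc25a37 and Slc25a12 were raised (8.41% of all genes were), and Slc25a38, Slc25a53 and Slc25a10 were lowered (11.1% of all genes were). The median was 0.027 beside 0.012 over all genes. With the block, 13 carriers (32.5%) passed, 6 raised and 7 lowered, beside 26.8% of all genes. Upper-quartile scaling gave 7 carriers raised and 3 lowered, beside 2137 raised and 1566 lowered of all genes tested.

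Butyrate alone changed 10 of the 40 carriers against control, 25% beside 19.9% of all genes tested. The 5 raised were Slc25a13, Slc25a37, Slc25a23, Slc25a40 and Slc25a39 (8.53% of all genes were raised), and the 5 lowered were Slc25a38, Slc25a53, Slc25a10, Slc25a5 and Slc25a11 (11.4% of all genes were lowered). The median was 0.013 beside 0.0065. With the block, 16 carriers (40%) passed, 10 raised and 6 lowered, beside 26.2% of all genes. Without control replicate 2 the count fell to 6 (14.6%), with 3 in each direction, beside 16.1% of all genes. The division was 12 raised and 2 lowered under upper-quartile scaling, 3 raised and 6 lowered with library size alone, and 8 raised and 5 lowered with RLE size factors. Of all genes tested, 2207 were raised and 1566 lowered, 1343 raised and 2488 lowered, and 1648 raised and 2054 lowered, in the same order.

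IL-1β plus butyrate against control changed 10 of the 40 carriers, 25% beside 30.6% of all genes tested. Slc25a24, Slc25a13, Slc25a1 and Slc25a12 were raised (15.8% of all genes), and Slc25a38, Slc25a14, Slc25a53, Slc25a25, Slc25a28 and Slc25a16 were lowered (14.8% of all genes). The median was 0.065 beside -0.0027. With the block, 19 carriers (47.5%) passed, 11 raised and 8 lowered, beside 37.1% of all genes. With library size alone 10 carriers were raised and 4 lowered, with 8 and 6 under upper-quartile scaling and 6 and 5 without the filter on low counts. Of all genes in these fits, 3805 were raised and 1884 lowered, 3123 raised and 2618 lowered, and 3068 raised and 2653 lowered, in the same order. In all, 20 carriers changed in at least 1 comparison and 20 in none. The share of all genes that changed in at least 1 was not computed, so these counts cannot be set beside it.

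The difference between both butyrate effects was called for 0 of the 40 carriers and for 0.0968% of all genes. DESeq2 also called 0 carriers, and 0 had an unadjusted edgeR p under 0.05. With the block 0 carriers passed as well, beside 0.71% of all genes (0.323% with a positive and 0.387% with a negative difference). The smallest unadjusted p was that of Slc25a23, for which the difference was 0.17 on the log2 scale with a 95% interval of -0.018 to 0.36 and an edgeR FDR of 0.708. For Slc25a38 the interval of the difference was -0.39 to 0.082, and for Slc25a13 -0.39 to 0.19. Of the 40 carriers, 37 (92.5%) had butyrate effects of the same sign with and without IL-1β, beside 78.8% of all genes tested, and 6 (15%) were called in the same direction in both, beside 13.5%. These comparisons share no libraries, though all conditions come from the same 4 experiments.

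**Figure D2:**
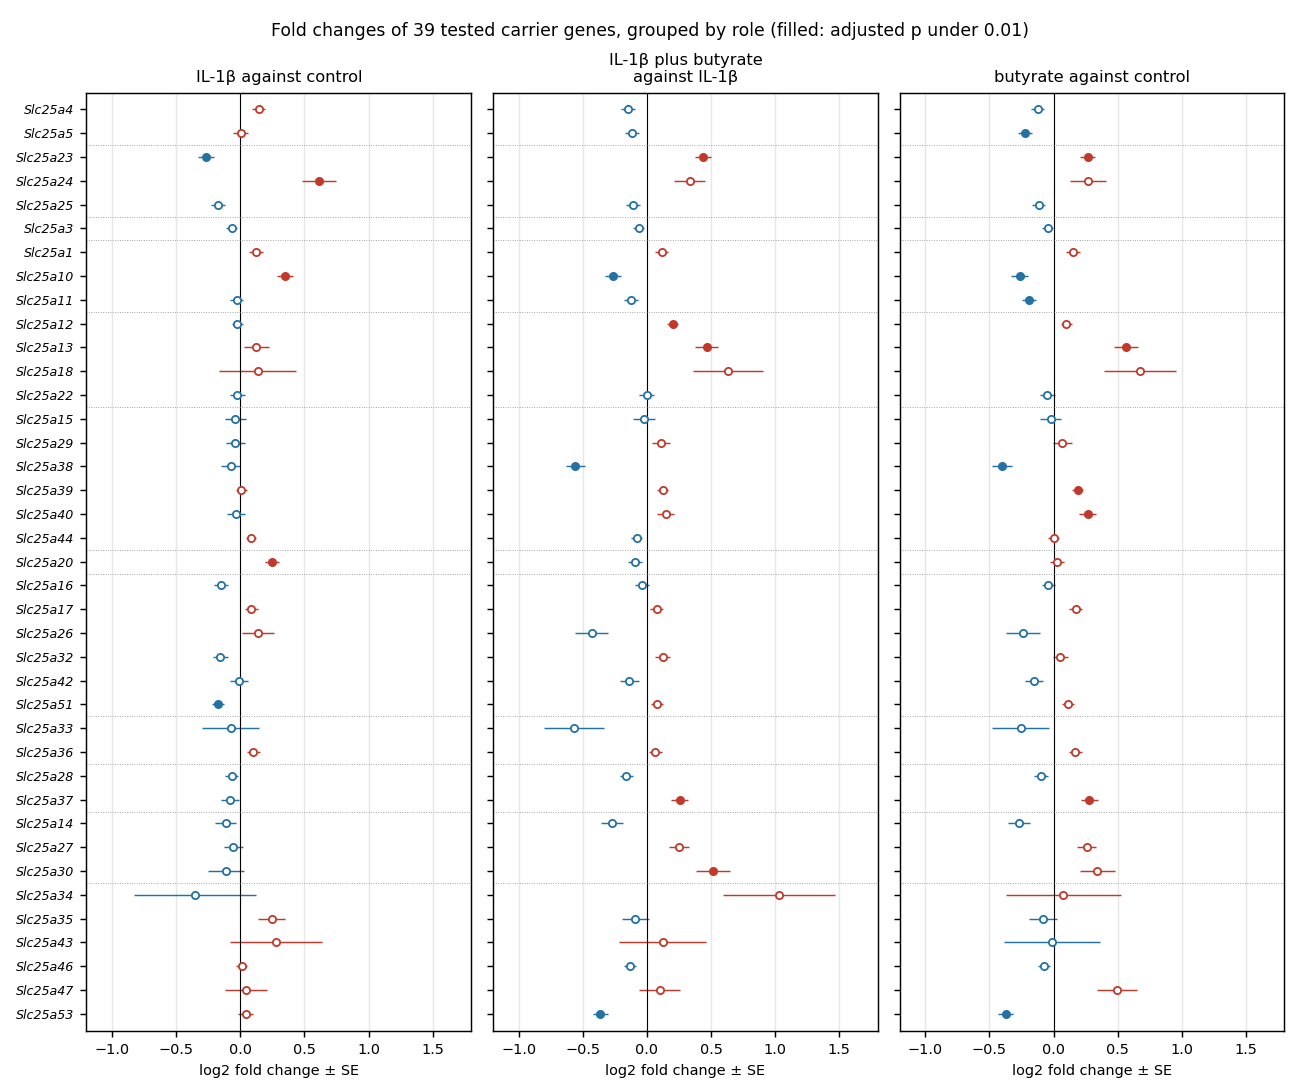
Log2 fold change ± SE of 39 of the 40 tested carriers (rows, grouped by role with dotted lines between roles) in the comparisons of IL-1β with control, of IL-1β plus butyrate with IL-1β, and of butyrate with control. Filled points passed edgeR FDR under 0.01, red for positive and blue for negative values; 5, 8 and 10 points are filled, and the widest bars belong to the low-count genes Slc25a34, Slc25a43 and Slc25a18.

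The adenine nucleotide carriers exchange ADP and ATP across the inner membrane. Slc25a4 (ANT1, ENSMUSG00000031633, chr8:46206797-46211284) had 203, 213, 198 and 201 CPM in control replicates 1 to 4, and 223, 254.5, 211 and 212 CPM with IL-1β alone. Slc25a4 had 202.5, 209, 200.1 and 201 CPM with IL-1β plus butyrate, and 198, 188, 187 and 175 CPM with butyrate alone. The IL-1β libraries were above those with IL-1β plus butyrate, replicate 2 being the highest, and control and IL-1β values overlapped. Its fold changes did not pass, at log2 0.14 ± 0.052 (SE) with IL-1β and edgeR FDR 0.0410, and -0.15 ± 0.052 with butyrate added to IL-1β and edgeR FDR 0.0317. With the block both passed, at edgeR FDR 0.00576 and 0.00415, and the second also passed without IL-1β replicate 4 (0.00781).

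Slc25a5 (ANT2, ENSMUSG00000016319, chrX:36795651-36798807) had 143, 154, 144 and 147 CPM in control islets, and 155, 165, 139 and 129.6 CPM with IL-1β alone. Slc25a5 had 135, 144, 134 and 129.6 CPM with IL-1β plus butyrate, and 126, 124, 130.1 and 125 CPM with butyrate alone. All libraries with butyrate alone were below all control libraries. Butyrate lowered it against control (log2 -0.22 ± 0.056, edgeR FDR 0.00354), but not without control replicate 2 (0.01695), butyrate replicate 2 (0.0136) or butyrate replicate 4 (0.0113). With butyrate added to IL-1β it had a log2 value of -0.12 (edgeR FDR 0.1195), which passed without IL-1β replicate 4 (0.00659). A pseudogene copy, Slc25a5-ps, is annotated, so the division of its reads is uncertain.

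The ATP-Mg/phosphate carriers are opened by calcium and change the size of the matrix pool of adenine nucleotides. Slc25a23 (ENSMUSG00000046329, chr17:57043711-57059863), chosen for values in every library after its values were seen, had 56.4, 58.5, 66.9 and 63.5 CPM in control islets, and 46.4, 48.9, 54.3 and 54.1 CPM with IL-1β alone. Slc25a23 had 68.4, 62.3, 73.75 and 71.65 CPM with IL-1β plus butyrate, and 69.9, 73.1, 73.5 and 78.2 CPM with butyrate alone. The IL-1β libraries were the 4 lowest of all 16, and the butyrate libraries were above all control libraries. IL-1β lowered it (log2 -0.27 ± 0.062, edgeR FDR 0.00176), and butyrate raised it both when added to IL-1β (0.44 ± 0.062, edgeR FDR 4.87e-06) and alone (0.27 ± 0.061, edgeR FDR 0.00144). Both comparisons with IL-1β use the same IL-1β libraries. IL-1β plus butyrate against control did not pass (0.17 ± 0.061, edgeR FDR 0.0261), but passed with the block (0.000887), without the filter on low counts (0.00860), without control replicate 3 (0.00953) or without IL-1β plus butyrate replicate 2 (0.007205). The lowering was lost without control replicate 3 (0.0130), without IL-1β replicate 1 (0.0142) and with library size alone (0.06965), and the rise with butyrate alone was lost with library size alone (0.0234).

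Slc25a24 (ENSMUSG00000040322, chr3:109123149-109168457) was 1.17 RPKM over all libraries, far below Slc25a23 at 12.04. It had 3.03, 2.71, 2.48 and 3.08 CPM in control islets, and 4.08, 4.24, 4.61 and 4.40 CPM with IL-1β alone. Slc25a24 had 4.22, 6.28, 6.09 and 5.30 CPM with IL-1β plus butyrate, and 3.57, 3.55, 3.45 and 3.10 CPM with butyrate alone. All IL-1β libraries were above all control and butyrate libraries, and those with IL-1β plus butyrate overlapped IL-1β alone through replicate 1. IL-1β raised it (log2 0.61 ± 0.13, edgeR FDR 0.000768), the largest fold change of a carrier in that comparison that passed, and IL-1β plus butyrate raised it against control (0.95 ± 0.13, edgeR FDR 8.70e-07). Butyrate added to IL-1β gave 0.33 ± 0.12 with edgeR FDR 0.0382, and 0.00708 without IL-1β plus butyrate replicate 1. The third member, Slc25a25, had 52.4 ± 3.57 CPM in control islets and 43.2 ± 0.976 with IL-1β plus butyrate, a lowering that passed (-0.28 ± 0.054, edgeR FDR 0.000141). With IL-1β alone it was -0.17 ± 0.054 (edgeR FDR 0.0186), which passed with the block (0.00267) and without IL-1β replicate 1 (0.00636).

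Slc25a3 (ENSMUSG00000061904, chr10:91116574-91124059), which brings phosphate and copper into the matrix, had 435.5, 419.8, 417 and 420 CPM in control islets, and 426.5, 414, 387 and 388 CPM with IL-1β alone. Slc25a3 had 384, 387, 393 and 381 CPM with IL-1β plus butyrate, and 419, 394.5, 417 and 409.8 CPM with butyrate alone. The libraries with IL-1β plus butyrate were below all control libraries, and the other conditions overlapped control. It passed in none of the comparisons, with log2 -0.13 ± 0.042 and edgeR FDR 0.0144 for IL-1β plus butyrate against control, 0.00442 with the block. The same value passed without IL-1β replicate 1 (0.00612) or replicate 4 (0.00801), libraries that enter this comparison only through the shared spread and scaling. It also passed with only the compared conditions in the fit (edgeR FDR 0.00866) and in DESeq2 (DESeq2 adjusted p 0.00319).

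Among the carriers of di- and tricarboxylates, Slc25a1 (ENSMUSG00000003528, chr16:17925223-17928219), which exports citrate to the cytosol for lipid synthesis, had 106, 103, 99.0 and 95.3 CPM in control islets, and 112, 124, 102 and 102 CPM with IL-1β alone. Slc25a1 had 120.1, 120, 119 and 116 CPM with IL-1β plus butyrate, and 111, 115, 114 and 108 CPM with butyrate alone. Both groups with butyrate lay above all control libraries, and the IL-1β libraries spread widely and overlapped control. The rise passed for IL-1β plus butyrate against control (log2 0.24 ± 0.053, edgeR FDR 0.000636) and not for butyrate alone (0.15 ± 0.053, edgeR FDR 0.0349), where it passed with the block (0.00449). For butyrate added to IL-1β the value was 0.11 ± 0.053 (edgeR FDR 0.105), which passed without IL-1β replicate 2 (0.00641).

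Slc25a10 (ENSMUSG00000025792, chr11:120491840-120499187), which exchanges malate and succinate for phosphate, is given in every library after its values were seen. It had 17.4, 18.8, 19.6 and 18.4 CPM in control islets, and 24.9, 24.1, 22.9 and 22.9 CPM with IL-1β alone. Slc25a10 had 20.4, 19.9, 20.2 and 18.3 CPM with IL-1β plus butyrate, and 15.97, 13.6, 16.15 and 16.04 CPM with butyrate alone. The IL-1β libraries were the 4 highest of all and the butyrate libraries the 4 lowest, while IL-1β plus butyrate overlapped control. IL-1β raised it (log2 0.35 ± 0.063, edgeR FDR 8.31e-05), and butyrate lowered it when added to IL-1β (-0.26 ± 0.062, edgeR FDR 0.00179) and alone (-0.27 ± 0.065, edgeR FDR 0.00264). The comparisons with IL-1β share the IL-1β libraries. The last value was lost without control replicate 3 (0.0130), without butyrate replicate 2 (0.0204) and under upper-quartile scaling (0.0116). Exons of an antisense gene, Gm11788, cover 6.60% of the exon length of Slc25a10, and the strand setting of the counting is not given in the sources used here.

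Slc25a11, the oxoglutarate/malate carrier of the malate-aspartate shuttle, had 60.2 ± 3.25 CPM in control islets, 59.1 ± 4.11 with IL-1β, 54.1 ± 2.68 with IL-1β plus butyrate and 52.7 ± 1.09 with butyrate. Butyrate alone lowered it (log2 -0.19 ± 0.053, edgeR FDR 0.006025). That value passed narrowly, since it was lost without control replicate 2 or 3 and without any 1 of the butyrate replicates (edgeR FDR 0.0103 to 0.0295), and under upper-quartile scaling (0.0302). For IL-1β plus butyrate against control it was -0.15 ± 0.052 with edgeR FDR 0.0202, and 0.00385 with the block. Its exons overlap those of Rnf167 on the other strand over 8.92% of their length.

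The aspartate/glutamate carriers move reducing equivalents of cytosolic NADH into mitochondria as part of the malate-aspartate shuttle. Slc25a13 (citrin, ENSMUSG00000015112, chr6:6041218-6217173) had 5.51, 5.25, 5.59 and 4.84 CPM in control islets, and 5.22, 6.23, 5.805 and 5.77 CPM with IL-1β alone. Slc25a13 had 8, 8.36, 8.10 and 7.32 CPM with IL-1β plus butyrate, and 7.53, 8.88, 7.58 and 7.27 CPM with butyrate alone. All 8 libraries with butyrate were above all 8 without it. Butyrate raised it when added to IL-1β (log2 0.46 ± 0.093, edgeR FDR 0.000346) and alone (0.56 ± 0.094, edgeR FDR 3.96e-05), and IL-1β alone gave 0.12 ± 0.10 (edgeR FDR 0.396). Both rises passed in all 23 alternatives run for each. Its close relative Slc25a12 (aralar), at 11.96 RPKM over all libraries the main form in these islets beside 1.765 for Slc25a13, had smaller fold changes. Slc25a12 had 83.9 ± 2.54 CPM in control islets, 82.6 ± 3.52 with IL-1β, 94.9 ± 0.559 with IL-1β plus butyrate and 89.85 ± 3.46 with butyrate. It passed for IL-1β plus butyrate against IL-1β (0.20 ± 0.043, edgeR FDR 0.000814) and against control (0.18 ± 0.043, edgeR FDR 0.00148), and not for butyrate alone (0.10 ± 0.043, edgeR FDR 0.0921). The glutamate carriers Slc25a22 (10.46 RPKM) and Slc25a18 (0.366 RPKM) passed in none. Slc25a18, with 8 to 25 counts per library, had log2 values of 0.63 ± 0.27 and 0.67 ± 0.28 in the butyrate comparisons.

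Slc25a38 (ENSMUSG00000032519, chr9:120110374-120124504), which brings glycine into the matrix for heme synthesis, was the most lowered carrier with butyrate among those that passed. It had 14.1, 13.5, 12.2 and 12.8 CPM in control islets, and 12.9, 13.8, 11.7 and 11.7 CPM with IL-1β alone. Slc25a38 had 8.57, 8.28, 9.02 and 8.09 CPM with IL-1β plus butyrate, and 9.74, 9.55, 10.6 and 10.0 CPM with butyrate alone. All 8 libraries with butyrate were below all 8 without it, and those with IL-1β plus butyrate were the lowest. Its log2 fold changes were -0.56 ± 0.077 for butyrate added to IL-1β (edgeR FDR 3.37e-06), -0.40 ± 0.076 for butyrate alone (edgeR FDR 0.000168) and -0.075 ± 0.074 for IL-1β (edgeR FDR 0.507). Both lowerings passed in all 23 alternatives run for each.

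Slc25a39 (ENSMUSG00000018677, chr11:102402985-102407946), a glutathione importer, had 174, 171, 170.3 and 168 CPM in control islets, and 172, 181, 163 and 169.7 CPM with IL-1β alone. Slc25a39 had 196, 177, 187 and 188 CPM with IL-1β plus butyrate, and 198, 196, 191 and 192 CPM with butyrate alone. The libraries with butyrate alone were above all control and IL-1β libraries, and those with IL-1β plus butyrate overlapped IL-1β alone through replicate 2. Butyrate alone raised it (log2 0.19 ± 0.043, edgeR FDR 0.00129), while 0.12 ± 0.043 for butyrate added to IL-1β did not pass (edgeR FDR 0.02925). IL-1β plus butyrate against control gave 0.13 ± 0.043 with edgeR FDR 0.01495, 0.004765 with the block and 0.00555 without IL-1β plus butyrate replicate 2. Slc25a39 also passed there in DESeq2 (DESeq2 adjusted p 0.00571), under upper-quartile scaling (edgeR FDR 0.00442) and with library size alone (0.000298). Its paralog Slc25a40, at 1.72 RPKM, rose with butyrate alone from 13.6 ± 0.879 to 16.3 ± 0.551 CPM (0.27 ± 0.068, edgeR FDR 0.00366). That rise was lost without control replicate 2 or 3, without butyrate replicate 3 or 4, with library size alone and without the filter on low counts (edgeR FDR 0.0123 to 0.0211).

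The other carriers of amino acids passed in none of the comparisons. They were Slc25a44, a carrier of branched-chain amino acids (32.55 RPKM), Slc25a29, a carrier of basic amino acids (8.397 RPKM), and the ornithine carrier of the urea cycle Slc25a15 (2.08 RPKM). Their log2 values were -0.039 to 0.083 with IL-1β, -0.081 to 0.11 with butyrate added and -0.021 to 0.069 with butyrate alone. A related ornithine carrier, Slc25a2, had 3 to 13 counts per library and was not tested. Slc25a20 exchanges acylcarnitines for carnitine, which is the entry step of long-chain fatty acids to oxidation. IL-1β raised it from 26.55 ± 0.900 to 31.5 ± 1.62 CPM (log2 0.25 ± 0.052, edgeR FDR 0.000629), and it passed in all 23 alternatives. IL-1β plus butyrate against control gave 0.15 ± 0.052 with edgeR FDR 0.0198, and 0.00958 with the block.

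Among the 7 carriers of cofactors and coenzymes, the NAD+ carrier Slc25a51 and the coenzyme A-related Slc25a16 passed in 1 comparison each. IL-1β lowered Slc25a51 from 163 ± 4.845 to 145 ± 8.01 CPM (log2 -0.17 ± 0.046, edgeR FDR 0.006455). Leaving out control replicate 1, 3 or 4, IL-1β replicate 2, 3 or 4, or IL-1β plus butyrate replicate 1, 2 or 3 brought it above the threshold (edgeR FDR 0.0105 to 0.03375). The same held with library size alone (0.0766), without the filter on low counts (0.01965) and with only the compared conditions in the fit (0.0176). Slc25a16 fell from 35.5 ± 0.884 CPM in control islets to 31.1 ± 1.64 with IL-1β plus butyrate (-0.19 ± 0.052, edgeR FDR 0.00441). It did not pass without control replicate 1 or 3, without IL-1β plus butyrate replicate 1 or 4, with library size alone or without the filter (edgeR FDR 0.0146 to 0.0439).

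Slc25a17, the peroxisomal carrier of coenzyme A, NAD+ and FAD, and Slc25a36, a pyrimidine nucleotide carrier, passed in no comparison in the main fit. Their log2 values were 0.17 ± 0.052 and 0.17 ± 0.050 for butyrate alone (edgeR FDR 0.0116 and 0.0126), which became 0.00312 and 0.00150 with the block. For IL-1β plus butyrate against control they were 0.16 ± 0.051 and 0.16 ± 0.050 (edgeR FDR 0.0126 and 0.0102), and 0.00369 and 0.00134 with the block. Leaving out single libraries brought them below the threshold, for butyrate alone butyrate replicate 4 for Slc25a17 (0.00307) and IL-1β replicate 1 or 4 or IL-1β plus butyrate replicate 2 for Slc25a36 (0.00567 to 0.00951). For IL-1β plus butyrate against control these were butyrate replicate 1 or 4 for Slc25a17 (0.00775 to 0.008845) and IL-1β replicate 1, 2 or 4 or IL-1β plus butyrate replicate 4 for Slc25a36 (0.00498 to 0.00989). Other scaling also brought both below it, for butyrate alone RLE size factors (edgeR FDR 0.00889 and 0.00885) and upper-quartile scaling (0.000969 and 0.000506). For IL-1β plus butyrate against control these were upper-quartile scaling (0.00464 and 0.00205) and library size alone (0.0002965 and 6.345e-05).

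Slc25a26, the carrier of S-adenosylmethionine, had 4.67 ± 0.519 CPM with IL-1β alone and 3.45 ± 0.471 CPM when butyrate was added (log2 -0.43 ± 0.13, edgeR FDR 0.0119). It passed with the block (0.00488) and without IL-1β replicate 1 or 4 or IL-1β plus butyrate replicate 2 (0.003465 to 0.009735). The folate and FAD carrier Slc25a32 (3.73 RPKM) and the coenzyme A carrier Slc25a42 (6.03 RPKM) passed in none, with log2 values from -0.16 to 0.12 over the comparisons between conditions. The other pyrimidine nucleotide carrier, Slc25a33, was low, with 16 to 36 counts per library, and had log2 -0.65 ± 0.23 for IL-1β plus butyrate against control (edgeR FDR 0.0266), which passed without IL-1β plus butyrate replicate 3 (0.009135).

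The mitoferrins carry iron into the matrix for heme and iron-sulfur cluster synthesis. Slc25a37 (mitoferrin 1) had 22.4 ± 1.39 CPM in control islets, 21.2 ± 2.20 with IL-1β, 25.3 ± 1.09 with IL-1β plus butyrate and 27.2 ± 1.52 with butyrate. Butyrate raised it when added to IL-1β (log2 0.25 ± 0.067, edgeR FDR 0.00468) and alone (0.28 ± 0.066, edgeR FDR 0.001955). The first rise was lost without IL-1β replicate 1, 2 or 4, without IL-1β plus butyrate replicate 1, 2 or 3 and with only the compared conditions in the fit (edgeR FDR 0.0102 to 0.0323), and the second without control replicate 2 (0.0139) or butyrate replicate 1 (0.01004). Slc25a28 (mitoferrin 2) had 37.4 ± 1.36, 35.8 ± 2.36, 32.0 ± 1.01 and 35.0 ± 1.55 CPM in the same order. It was lowered by IL-1β plus butyrate against control (-0.23 ± 0.052, edgeR FDR 0.000923), though not with library size alone (0.0306), and its log2 value was -0.16 ± 0.053 for butyrate added to IL-1β (edgeR FDR 0.0228, and 0.00598 without IL-1β replicate 3). For IL-1β plus butyrate against control Slc25a37 had 0.175 ± 0.066 (edgeR FDR 0.03645, and 0.00912 with the block).

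Slc25a14, Slc25a27 and Slc25a30 are relatives of the uncoupling proteins. Slc25a30 (ENSMUSG00000022003, chr14:75760117-75787037) had 3.50, 3.17, 3.105 and 4.24 CPM in control islets, and 3.26, 3.60, 2.80 and 3.28 CPM with IL-1β alone. Slc25a30 had 4.67, 4.07, 4.99 and 4.815 CPM with IL-1β plus butyrate, and 5.42, 4.35, 3.55 and 4.43 CPM with butyrate alone. All libraries with IL-1β plus butyrate were above all with IL-1β alone, whereas butyrate alone and control overlapped. Butyrate added to IL-1β raised it (log2 0.51 ± 0.14, edgeR FDR 0.00470), but not without IL-1β replicate 1, 3 or 4 or IL-1β plus butyrate replicate 1, 3 or 4 (edgeR FDR 0.0124 to 0.0255). Against control, IL-1β plus butyrate gave 0.40 ± 0.13 with edgeR FDR 0.0170, 0.00645 with the block and 0.00545 without control replicate 4.

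Slc25a14 had 18.99 ± 2.13 CPM in control islets, 17.6 ± 1.65 with IL-1β, 14.55 ± 1.25 with IL-1β plus butyrate and 15.8 ± 1.25 with butyrate. It was lowered by IL-1β plus butyrate against control (log2 -0.38 ± 0.084, edgeR FDR 0.000509). With butyrate added to IL-1β and with butyrate alone it had -0.27 ± 0.085 and -0.27 ± 0.084 (edgeR FDR 0.0169 and 0.0164), which passed with the block (0.00406 and 0.00429), the first also without IL-1β replicate 3 or 4 (0.00795 to 0.00867) and the second without control replicate 3 (0.00624). Slc25a27 had the opposite sign, with 0.25 ± 0.076 and 0.26 ± 0.076 (edgeR FDR 0.0133 and 0.0101), and passed with the block as well (0.00320 and 0.00258). The first of these also passed without IL-1β plus butyrate replicate 2 (0.00853) and the second without IL-1β replicate 2 or 4, IL-1β plus butyrate replicate 2 or butyrate replicate 1 (0.00622 to 0.00990).

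The last group holds Slc25a46, which lies in the outer membrane and takes part in mitochondrial dynamics, and carriers whose substrate is not settled. Slc25a53 (ENSMUSG00000044348, chrX:136981116-137038302), given in every library after its values were seen, had 32.7, 33.3, 34.5 and 35.0 CPM in control islets, and 36.2, 36.6, 36.0 and 31.1 CPM with IL-1β alone. Slc25a53 had 25.4, 26.4, 28.95 and 27.6 CPM with IL-1β plus butyrate, and 26.7, 27.7, 25.8 and 24.5 CPM with butyrate alone. All 8 libraries with butyrate were below all 8 without it. Butyrate lowered it when added to IL-1β (log2 -0.37 ± 0.059, edgeR FDR 2.435e-05) and alone (-0.37 ± 0.059, edgeR FDR 1.955e-05), in all 23 alternatives run for each. Slc25a46 (11.4 RPKM) had -0.13 ± 0.044 for butyrate added to IL-1β (edgeR FDR 0.0247, and 0.00999 with the block). Slc25a47 had 2.065 ± 0.427 CPM in control islets and 2.90 ± 0.279 with butyrate (0.50 ± 0.16, edgeR FDR 0.0174), which passed with the block (0.00941) and without control replicate 1 (0.00420). Slc25a35 passed in none, and 31.3% of its exon length lies under exons of Rangrf on the other strand. Slc25a34 and Slc25a43, with 1 to 14 and 5 to 16 counts per library, passed in none, and the log2 value of 1.03 ± 0.44 for Slc25a34 with butyrate added to IL-1β (edgeR FDR 0.0762) rests on these counts.

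**Figure D3:**
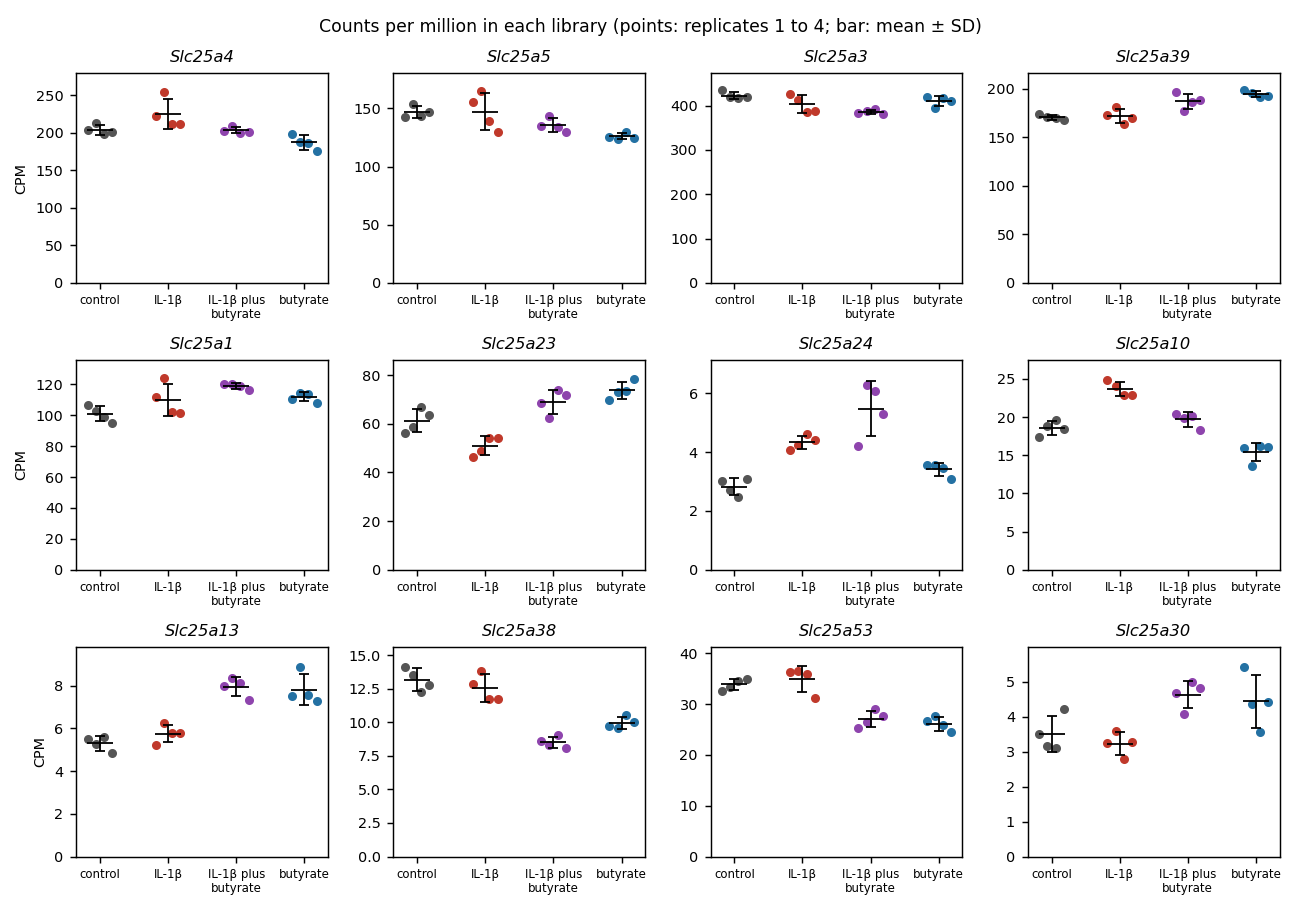
CPM in each library (points, replicates 1 to 4 from left to right within a condition) with mean ± SD for 12 carriers: the 5 most abundant, the 4 with a log2 fold change of at least 0.5 that passed, and Slc25a23, Slc25a10 and Slc25a53. For Slc25a13, Slc25a38 and Slc25a53 the libraries with butyrate do not overlap those without it, and for Slc25a23 and Slc25a10 the IL-1β libraries lie at the bottom and at the top.

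**Figure D4:**
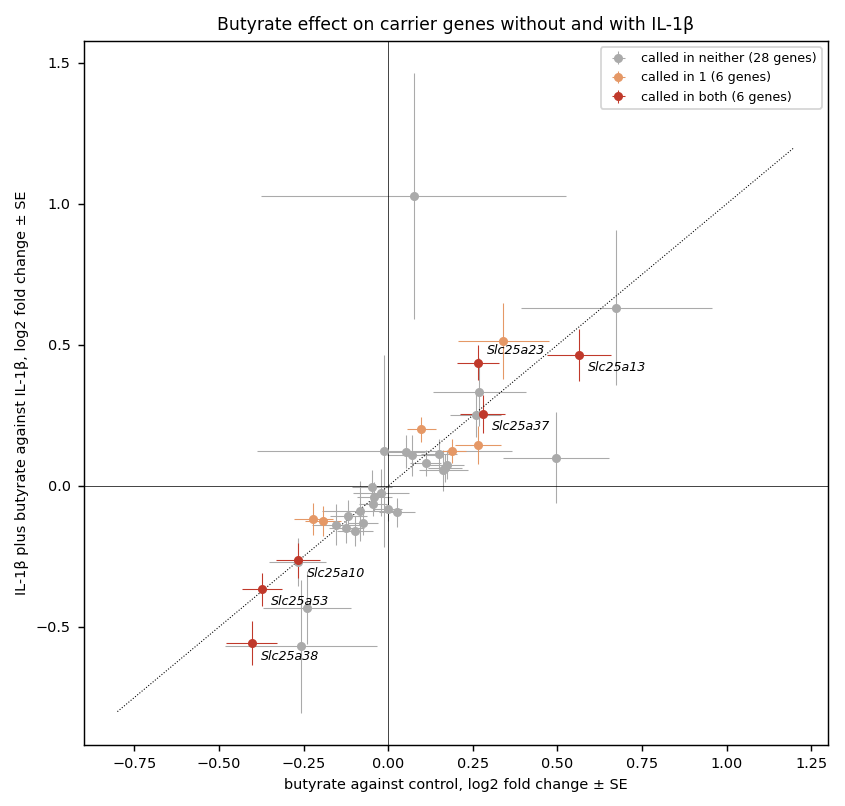
Log2 fold change ± SE of butyrate alone against control (x axis) and of butyrate added to IL-1β against IL-1β (y axis) for the 40 tested carriers, with the line of equal effects dotted. The 6 genes that passed in both (red) lie near that line at both ends, 6 passed in 1 (orange), 28 in neither (grey), and 37 of 40 points lie in the quadrants of equal sign.

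Pairs of related carriers were compared by their ratio per length within each library, with no test between genes. Slc25a12 was 8.22 ± 0.498 times Slc25a13 in control islets, 7.44 ± 0.336 with IL-1β, 6.19 ± 0.3485 with IL-1β plus butyrate and 5.99 ± 0.616 with butyrate. All 8 ratios with butyrate were below all 8 without it. Mitoferrin 2 (Slc25a28) was 2.69 ± 0.197 times mitoferrin 1 (Slc25a37) in control islets and 2.74 ± 0.380 with IL-1β, and 2.04 ± 0.107 and 2.07 ± 0.141 in the groups with butyrate. Slc25a14 was 10.7 ± 2.035 and 10.54 ± 0.710 times Slc25a30 without butyrate, and 6.11 ± 0.885 with IL-1β plus butyrate and 7.03 ± 1.33 with butyrate alone. These 3 ratios were lower in the groups with butyrate, whereas that of Slc25a23 to Slc25a24 was lower in the groups with IL-1β, at 14.2 ± 2.31 in control and 14.05 ± 1.60 in butyrate islets against 7.61 ± 0.256 with IL-1β and 8.39 ± 1.71 with both. Slc25a39 was 36.3 to 39.6 times Slc25a40 in the means of the 4 conditions.

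Other genes of mitochondrial transport were counted from lists written from general knowledge. For all list counts below, 17.8% of all genes tested passed with IL-1β, 19.5% with butyrate added to IL-1β and 19.9% with butyrate alone. With the block these shares were 24.4%, 26.8% and 26.2%. Of 3 carrier family genes with other symbols that were tested (Ucp2, Mtch1 and Mtch2), IL-1β raised Ucp2, an uncoupling protein of beta cells, from 295 ± 5.54 to 409 ± 25.4 CPM (log2 0.47 ± 0.046, edgeR FDR 5.87e-09). Butyrate added to IL-1β lowered it to 355 ± 14.6 CPM (-0.20 ± 0.046, edgeR FDR 0.001125), a value lost under upper-quartile scaling (0.0148) and with only the compared conditions in the fit (0.0134). Among 10 other inner membrane transporters, 2 were lowered by IL-1β, led by the sideroflexin Sfxn2 (-0.45 ± 0.050, edgeR FDR 5.43e-08). Butyrate lowered 1 of the 10, Mpc2 of the pyruvate carrier, when added to IL-1β (-0.22 ± 0.056, edgeR FDR 0.00394) and alone (-0.28 ± 0.056, edgeR FDR 0.000410). The first of these was lost without IL-1β replicate 2 (0.0168), without IL-1β plus butyrate replicate 1 (0.01345) and in 2 other alternatives (0.01765 to 0.0223). With the block IL-1β lowered 1 of the 3 carrier family genes, and of the 10 transporters IL-1β raised 1 and lowered 3 and butyrate alone lowered 2.

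Of 9 genes of mitochondrial calcium handling, IL-1β raised 2, butyrate added to IL-1β changed 0, and butyrate alone raised 3 and lowered 1. With the block IL-1β raised 4 of them, and butyrate added to IL-1β raised 1 and lowered 2. Mcub, a subunit that dampens calcium uptake through the uniporter, had the largest change, from 3.997 ± 0.5001 CPM in control islets to 13.55 ± 3.035 with IL-1β (log2 1.76 ± 0.16, edgeR FDR 1.15e-07) and 7.52 ± 1.55 with butyrate (0.91 ± 0.17, edgeR FDR 0.000607). Of the 3 outer membrane channels, Vdac1 alone passed, at 119.8 ± 3.52 CPM in control islets, 99.3 ± 1.17 with IL-1β, 121.5 ± 2.65 with both and 156 ± 5.165 with butyrate. It was lowered by IL-1β (-0.27 ± 0.041, edgeR FDR 9.67e-06) and raised by butyrate with IL-1β (0.29 ± 0.041, edgeR FDR 4.28e-06) and without (0.38 ± 0.041, edgeR FDR 5.04e-08). Of 10 genes of the import route of the carriers, 0 passed with IL-1β, 2 were raised by butyrate added to IL-1β and 1 by butyrate alone. The receptor subunit Tomm20 led both, at 56.35 ± 1.19 and 56.3 ± 0.695 CPM without butyrate and 78.0 ± 2.515 and 75.9 ± 3.37 with it (0.47 ± 0.043, edgeR FDR 4.62e-09, and 0.43 ± 0.043, edgeR FDR 2.22e-08).

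Of 15 enzymes of the shuttles and of anaplerosis, IL-1β raised 3 and lowered 4, butyrate added to IL-1β raised 3 and lowered 6, and butyrate alone raised 2 and lowered 7. With the block IL-1β raised 6 and lowered 4, and butyrate added to IL-1β raised 3 and lowered 8. Me1, the cytosolic malic enzyme, was the most changed with IL-1β (log2 0.72 ± 0.067, edgeR FDR 2.49e-09), and Idh1, the cytosolic isocitrate dehydrogenase, with butyrate, both added to IL-1β (-0.68 ± 0.10, edgeR FDR 4.90e-05) and alone (-0.67 ± 0.10, edgeR FDR 6.67e-05). Of the 4 tested genes listed under the carnitine shuttle, IL-1β raised 3, with Cpt1c the most (0.53 ± 0.058, edgeR FDR 4.57e-08). Butyrate lowered 3 of them when added to IL-1β and 2 alone, with Crat the most (-0.25 ± 0.073, edgeR FDR 0.00958, and -0.37 ± 0.075, edgeR FDR 0.000455). The first value for Crat lay at the threshold and was lost without control replicate 2, 3 or 4, IL-1β replicate 3 or 4, IL-1β plus butyrate replicate 2, 3 or 4 or butyrate replicate 1 or 2 (edgeR FDR 0.0104 to 0.0317), as well as under upper-quartile scaling and with library size alone.

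Of the 13 proteins encoded in the mitochondrial genome, 7 were tested. The others (mt-Nd3, mt-Nd4l, mt-Co2, mt-Co3, mt-Atp6 and mt-Atp8) had at most 0.05225 CPM in any library, beside a mean of 6606 CPM for mt-Co1 in control islets. Counting of mitochondrial genes may thus be incomplete, and why was not tested. Of the 7 tested, 1 passed with butyrate added to IL-1β, mt-Cytb (-0.20 ± 0.051, edgeR FDR 0.00452), and with the block 5 of the 7 were lowered. The value for mt-Cytb was lost without IL-1β replicate 2 or IL-1β plus butyrate replicate 1 or 4, under upper-quartile scaling and with only the compared conditions in the fit (edgeR FDR 0.0108 to 0.0295). With IL-1β and with butyrate alone 0 passed, while with the block IL-1β raised 1, mt-Nd2 (0.16 ± 0.10, edgeR FDR 0.297 without the block and 0.00610 with it). Of 7 regulators of mitochondrial biogenesis, IL-1β raised 1 and lowered 1, butyrate added to IL-1β raised 2 and butyrate alone raised 1. Ppargc1a, a coactivator of nuclear genes for mitochondrial proteins, was at 2.76 ± 0.343 CPM in control, 1.75 ± 0.288 CPM in IL-1β and 2.76 ± 0.283 CPM in IL-1β plus butyrate islets (log2 -0.65 ± 0.16, edgeR FDR 0.00231, and 0.64 ± 0.16, edgeR FDR 0.002535). The first of these was lost without control replicate 4 or IL-1β replicate 1 or 2 (0.0115 to 0.0158) and with only the compared conditions in the fit (0.0111). The second was lost without IL-1β replicate 1 or 2 or IL-1β plus butyrate replicate 4 (0.0121 to 0.0159). With butyrate alone the gene that passed was Esrra, an orphan nuclear receptor (0.36 ± 0.067, edgeR FDR 0.000180). In IL-1β plus butyrate against control, the lists were led by Mcub (2.03 ± 0.16), Esrra (0.60 ± 0.066), Sfxn2 (-0.53 ± 0.050), Gpd2 (-0.49 ± 0.062), Tomm20 (0.47 ± 0.043), Cpt1c (0.30 ± 0.058), Ucp2 (0.27 ± 0.046) and mt-Cytb (-0.25 ± 0.051), and 0 outer membrane channels passed.

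**Figure D5:**
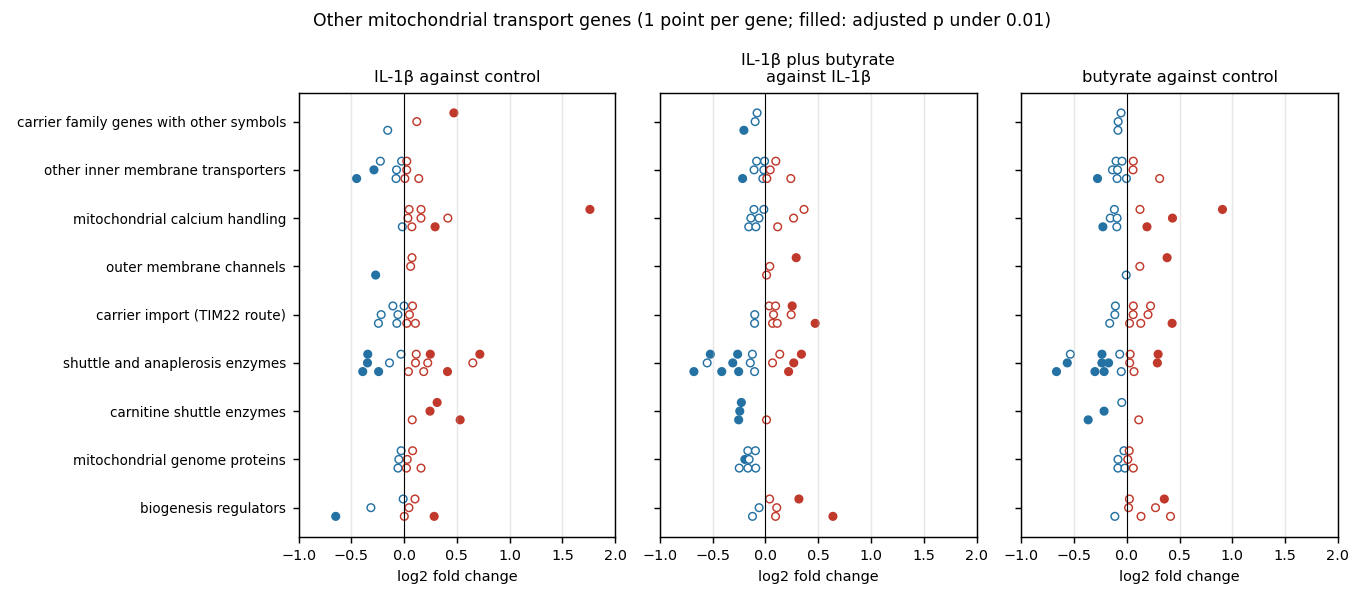
Log2 fold change of each tested gene (1 point per gene) in 9 lists of other mitochondrial transport genes in the comparisons of IL-1β with control, of IL-1β plus butyrate with IL-1β, and of butyrate with control. Filled points passed edgeR FDR under 0.01, red for positive and blue for negative values. The farthest point is Mcub with IL-1β at log2 1.76. The enzymes of the shuttles hold the most filled points and are also the longest list, with 15 genes.

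Markers of islet cells and of other cells moved with the groups, and their part in the values of the carriers was not tested. All 8 beta cell markers, among them both insulin genes, had counts in every library, and their summed level was 214400 to 237200 CPM in control islets, 137800 to 179400 with IL-1β, 138100 to 170300 with IL-1β plus butyrate and 222800 to 262300 with butyrate. The sums with IL-1β, alone or with butyrate, did not overlap those of the other groups. Most of each sum was Ins1 and Ins2, at 51510 ± 3029 and 145100 ± 7863 CPM in control islets. IL-1β lowered 6 of the 8 and raised 1, Iapp, from 21970 ± 1270 to 27030 ± 3014 CPM. The 5 alpha cell markers summed to 21070 to 24230, 20240 to 25760, 24870 to 27880 and 18680 to 22100 CPM in the same order, and the 3 delta cell markers to 1689 to 1989, 1739 to 2216, 2622 to 3184 and 2389 to 2769. The delta sums were higher in both groups with butyrate, but nearly all of each sum was Sst. Butyrate raised Sst when added to IL-1β (log2 0.61 ± 0.081) and alone (0.55 ± 0.081), and the other 2 delta cell markers passed in neither comparison in the main fit. With the block 2 of the 3 delta cell markers were raised in each of these comparisons. The 7 macrophage markers summed to 114 to 133, 133.5 to 146, 78.3 to 93.5 and 75.2 to 98.7 CPM, and IL-1β raised 6 of them and lowered C1qa, which holds most of the sum. The 5 duct markers, mainly Epcam, summed to 140.4 to 160.3, 165 to 178, 156 to 161 and 132 to 152 CPM. The 7 acinar markers summed to 18.2 to 29.5, 15.7 to 20.4, 7.56 to 13.4 and 13.4 to 19.4 CPM, nearly all of it Cela1, with Amy2a5 at 0 in every library of the first 3 groups. The 6 fibroblast and stellate markers and the 5 endothelial markers were low, with sums of 4.395 to 19.5 CPM and 3.27 to 6.115 CPM over all libraries.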

How the data were processed

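RNA of 16 islet libraries, 4 in each condition, was sequenced as single-end reads from NEBNext Ultra II RNA libraries, and the authors aligned the reads to GRCm38 with STAR 2.5.3a and deposited raw counts per gene for all libraries in 1 table. The annotation release and strand setting of the counting are not given in the sources used here, and there are no molecular identifiers. The table held 0 columns of other samples and no comparisons by the authors. Ensembl ids were named from GENCODE M21, which held 52489 of the 52636 ids, and 10560 genes had no count. The members and gene lists were chosen with earlier results of these data known.

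The counts were fitted in 1 edgeR 4.0.16 quasi-likelihood model of the 4 conditions (robust, TMM scaling, filterByExpr, 18587 genes), and an adjusted p under 0.01 was taken as a change. Intervals of 95% use 12 residual degrees of freedom. Groups came from the sample labels, and replicate numbers were taken to mark the 4 experiments. Same-numbered libraries deviated together in each of the 4 comparisons between conditions (correlations of 0.113 to 0.487 over genes whose average log2 CPM reached 1, the lowest being 0.0535 over all tested genes), and all 16 correlated best with their own number. The fit with the number as a block is therefore given where it changes the call of a carrier or a count stated for a list. The other alternatives were RLE, upper-quartile and no scaling factors, no filter, DESeq2 1.42.0, only the conditions compared, an adjusted p under 0.05 and each library left out.

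The scripts were tested on simulated data. Values in every library are given for the 5 most abundant carriers and for those that passed with a log2 fold change of at least 0.5, by rule, and for Slc25a10, Slc25a23 and Slc25a53 by choice after their values were seen. By name, 1 carrier and 1 marker gene are not reported here, though they are in the counts and sums. The identity of protein sequences within the family was not analysed here. RPKM divides CPM by the exon length of GENCODE M21, so it depends on that annotation.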

Additional observations from a re-analysis of the deposited data

Results flagged for a closer look

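Among the 164 groups of 4 libraries (41 carriers in 4 conditions), 10 held 1 library whose gap to the nearest of the others, as a share of the group's range, was above Dixon's 95% critical value, where chance alone gives about 1 in 20 groups, or 8.2. With butyrate, Slc25a10 had 13.64 CPM in replicate 2 against 15.97 to 16.15 in the other 3, and without that library its lowering by butyrate did not pass (edgeR FDR 0.0204). Slc25a14 was low in the same library, at 13.95 CPM against 16.3 to 16.6. Slc25a36 with butyrate had 135.4 CPM in replicate 1 against 127 to 128, and Slc25a43 had 0.6022 CPM in replicate 4 against 0.261 to 0.311. In control islets, replicate 2 stood apart for Slc25a43, at 0.5003 CPM against 0.327 to 0.342, and for Slc25a46, at 60.33 CPM against 64.8 to 65.4. With IL-1β, Slc25a53 had 31.14 CPM in replicate 4 against 36.0 to 36.6. With IL-1β plus butyrate, Slc25a17 had 53.98 CPM in replicate 2 against 49.7 to 50.2, Slc25a32 had 21.85 CPM in replicate 1 against 22.9 to 23.0, and Slc25a47 had 2.119 CPM in replicate 4 against 2.32 to 2.33. The values of Slc25a43 rest on 5 to 16 counts per library.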

How the results depend on the processing

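The 33 calls of carriers in the 4 comparisons between conditions were recomputed under 23 alternatives each, apart from the threshold of 0.05. Of these 759 values 701 passed again, 58 did not and 0 reversed, and 21 calls passed in every alternative. With an adjusted p under 0.05 in place of 0.01, 8 carriers changed with IL-1β, 16 with butyrate added to IL-1β, 16 with butyrate alone and 23 with IL-1β plus butyrate against control, beside 26.3%, 30.1%, 29.1% and 40% of all genes tested. The replicate block gave counts of 7, 13, 16 and 19, beside 5, 8, 10 and 10 without it. The block added the calls named in the report, lost 0 of the 33 and changed no other call of a carrier. Leaving out 1 library at a time gave 3 to 5 calls with IL-1β, lowest without control replicate 3, and 6 to 10 with butyrate added to IL-1β. It gave 6 to 12 with butyrate alone, lowest without control replicate 2, and 9 to 12 with IL-1β plus butyrate against control. In these fits 14.5% to 17.6%, 16.4% to 19.4%, 15.3% to 20.5% and 26.4% to 31.3% of all genes tested passed, in the same order. The difference of the butyrate effects gave 0 calls in every alternative at 0.01, and a fit of only the conditions compared is the same fit there and gave no further value. The cause of these shifts was not tested. Depth limits the 8 carriers under 1 RPKM, of which Slc25a34 had 1 to 14 counts per library.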
